A study of Mus musculus with 2 samples.

Results

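The genes of cholesterol and fatty acid synthesis were examined in 661W, a mouse line of cone photoreceptor origin whose donor animal carried the SV40 T antigen transgene and formed tumors of the retina. A fixed list of 36 symbols defined the set, and all 36 had a value among the 13281 genes measured. Of these, 20 belong to the sterol branch (19 enzymes of the mevalonate and cholesterol pathways and the sterol carrier Stard4), 11 belong to the fatty acid branch, and 5 regulate both branches. The list was fixed by pathway, with earlier results of these data known. One RNA sequencing library came from 661W cells stably expressing 3xF-TRPM1, the full-length human channel with an N-terminal FLAG tag delivered by a pBABE-Puro retrovirus, and the other came from 661W cells with the control vector. The study sequenced them to ask which genes differ when TRPM1 is expressed. Both were kept in the same medium with fetal bovine serum, and stable populations in the study were obtained by puromycin selection. With 1 library per condition no difference has a replicate check, no SD or p-value is given, and every comparison is between these 2 libraries.

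Cholesterol is built from acetyl-CoA through mevalonate, isoprenoid diphosphates, squalene and lanosterol, and fatty acids are built from the same precursor by carboxylation, chain synthesis, elongation and desaturation. Both branches are controlled by the SREBP transcription factors, which are held in the endoplasmic reticulum by SCAP and the INSIG proteins when sterols are plentiful and are cut and sent to the nucleus when sterols run low. SREBP-2, the product of Srebf2, acts mainly on sterol genes, and SREBP-1, the product of Srebf1, acts mainly on fatty acid genes. In the retina, photoreceptor outer segments are rich in polyunsaturated fatty acids, and these membranes are renewed throughout life.

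The deposited values are scaled read counts (CPM), and each stood for a whole number of reads. A read was worth 0.0567 CPM in the 3xF-TRPM1 library and 0.0598 CPM in the empty vector library. These steps correspond to scaling sizes of 17639743 reads for 3xF-TRPM1 and 16728172 reads for the empty vector. For 3xF-TRPM1 that size is below the reads of its listed genes, so its scaling was not to the plain read total. Reads of listed genes numbered 17869838 for 3xF-TRPM1 and 16404444 for the empty vector, of which the 36 genes took 0.395% in the 3xF-TRPM1 library and 0.421% in the empty vector library. Every listed gene exceeded 1 CPM in each library, and genes below that level have no value here. Log2 fold changes are of 3xF-TRPM1 over empty vector, after adding a pseudocount of 0.5 CPM to both values. Their intervals are 95% exact binomial intervals for the ratio of the reads and cover counting error only. Over all genes the median was 0.0093. Of 20 cone phototransduction markers, 2 had a value, Gnat2 at 2.49 CPM in the 3xF-TRPM1 library and 2.57 CPM in the empty vector library and Rom1 at 7.26 CPM in the 3xF-TRPM1 library and 9.68 CPM in the empty vector library, while the opsins, Arr3 and Crx had none. Mouse Trpm1 had no value and the cassette is human, so these values do not check the labels.

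None of the 36 genes reached a 1.5-fold difference with an interval that excluded 1-fold (0 of 36, against 6.98% of all genes, 3.91% higher and 3.07% lower). Smaller differences were counted by the interval alone. In the sterol branch, 10 of 20 genes had an interval wholly below 1-fold and 0 had one above it, whereas over all genes 19.7% lay below and 23.1% above (42.8% either way). The count depends on the interval: with an error rate of 0.001, 3 of 20 sterol genes lay below 1-fold and 0 above, against 9.86% of all genes below and 13.1% above. In the fatty acid branch 4 of 11 genes lay below and 3 of 11 above. Among the regulators 3 of 5 lay below and 0 above. The median member had 54.0 CPM in the 3xF-TRPM1 library and 59.7 CPM in the empty vector library, against 30.05 CPM in the 3xF-TRPM1 library and 29.3 CPM in the empty vector library over all genes, and more reads give narrower intervals. Among 9593 genes whose mean reached 10 CPM, a minimum chosen after the values were seen, the shares were 22.3% below and 27.4% above. At a lower fold threshold, 0.32 on the log2 scale with the interval excluding 1-fold, 2 sterol genes (Fdft1 and Mvk), 1 fatty acid gene (Fasn) and 0 regulators were lower, against 7.49% of all genes, and 1 of the 36 (Acss2) was higher, against 10.1% of all genes.

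**Figure D1:**
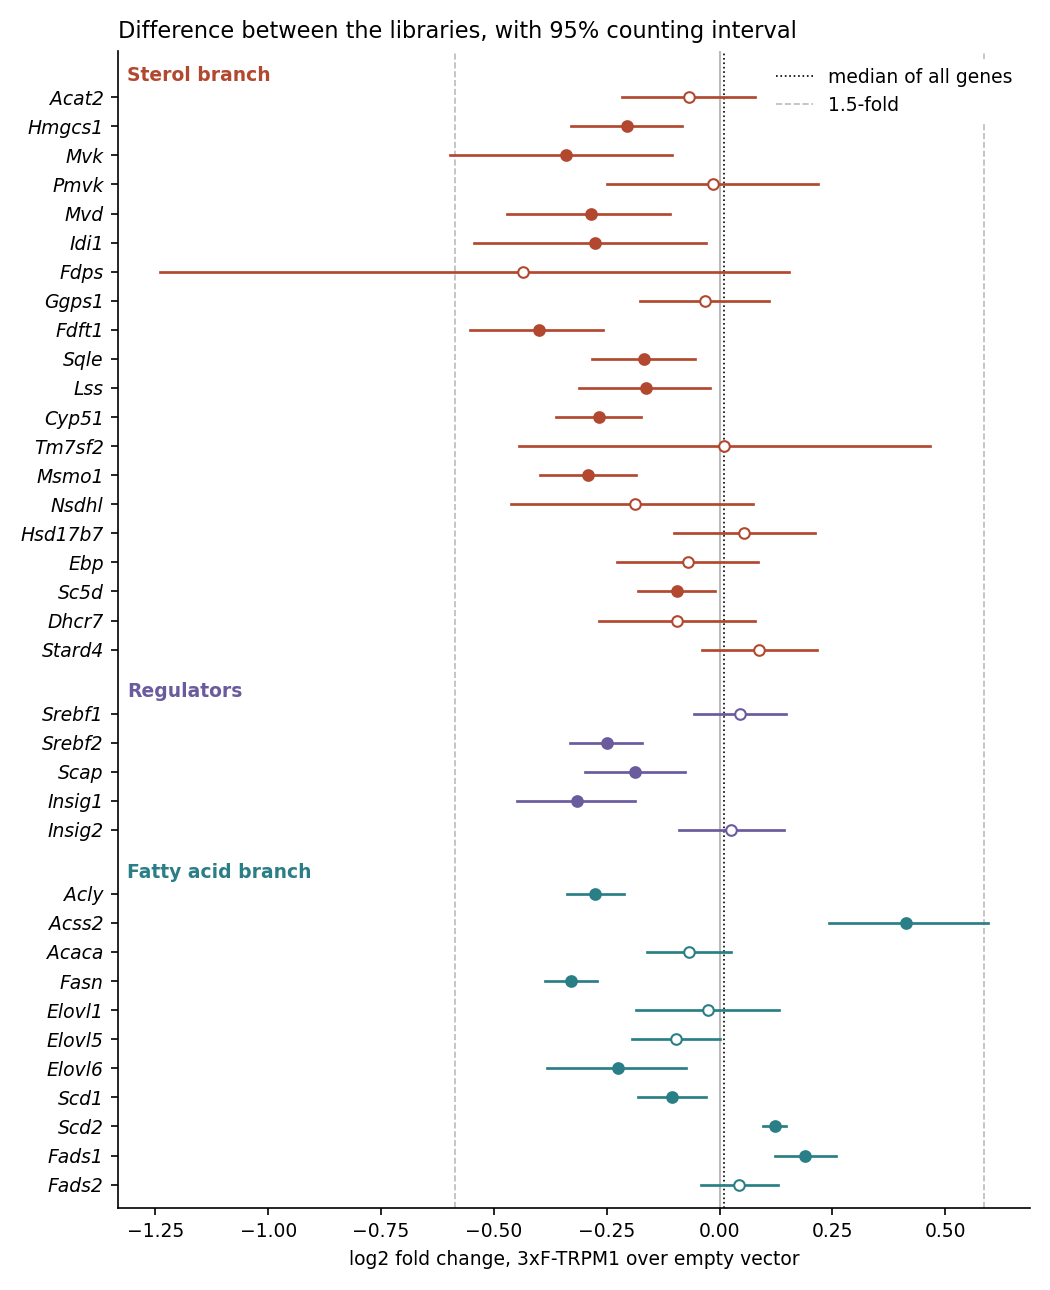
Log2 fold change of each of the 36 genes, 3xF-TRPM1 over empty vector, on the horizontal axis, with its 95% counting interval as a line. Filled points have an interval that excludes 1-fold and open points do not, the dotted line is the median of all genes and dashed lines mark 1.5-fold. The sterol genes lie from -0.44 to 0.09, with 17 of 20 below 0, and the fatty acid genes lie from -0.33 (Fasn) to 0.41 (Acss2).

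The median log2 fold change was -0.17 over the 20 sterol genes, -0.19 over the 5 regulators and -0.07 over the 11 fatty acid genes. A log2 fold change below 0 was found in 17 of 20 sterol genes, 3 of 5 regulators and 7 of 11 fatty acid genes, against 48.2% of all genes. Summed over the branch, sterol genes held 859 CPM in the 3xF-TRPM1 library and 957 CPM in the empty vector library, a ratio of 0.897. The summed fatty acid genes held 2717 CPM in the 3xF-TRPM1 library and 2701 CPM in the empty vector library, a ratio of 1.01. That sum is carried by Scd2, without which the ratio was 0.929. The sterol median depends on which genes are counted: it was -0.10 after leaving out 5 sterol genes that share at least 10% of their sequence with other genes (Acat2, Hmgcs1, Idi1, Fdps and Fdft1), an alternative added after the data were seen. The same rule left out Acaca from the fatty acid branch, whose median became -0.06. The sterol median minus the fatty acid median was then -0.03, against -0.10 with all members. No test of the difference between the branches was possible, since genes of one library are not replicates.

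**Figure D2:**
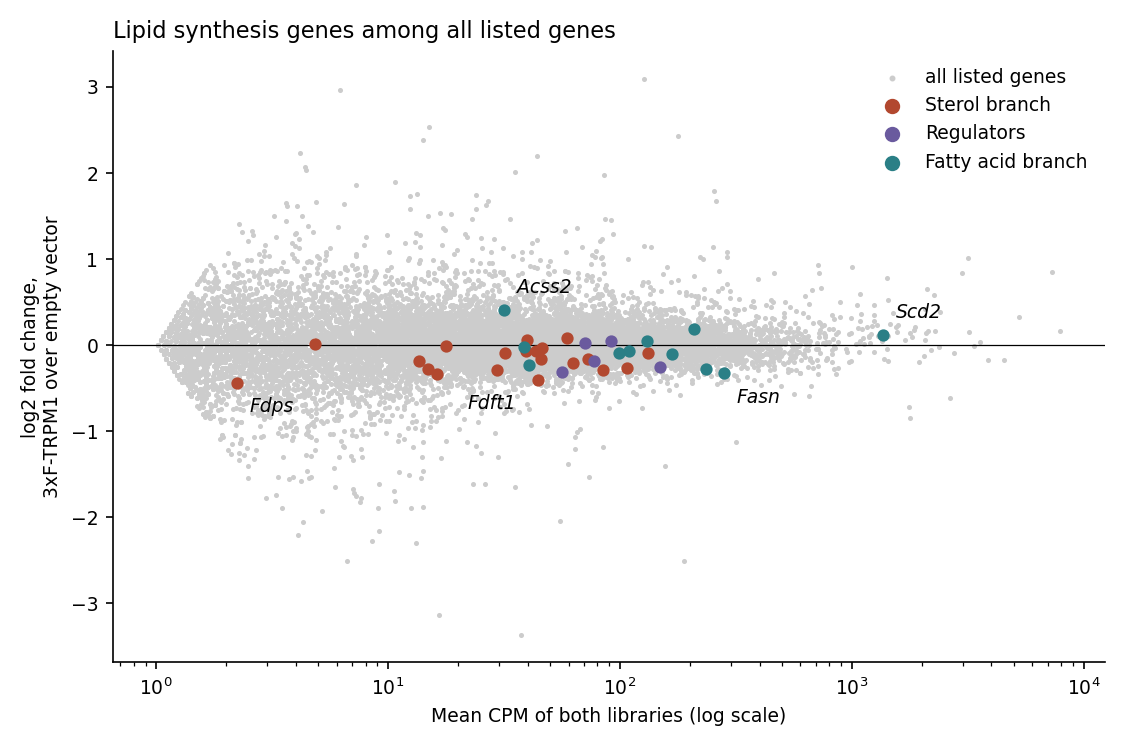
Log2 fold change, 3xF-TRPM1 over empty vector, against the mean CPM of both libraries on a log axis, with every listed gene in gray and the 36 genes in color by branch. The lipid synthesis genes stay between -0.44 (Fdps) and 0.41 (Acss2), inside the spread of the other genes at their level.

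After the values were seen, the sequence around the starts of the members was searched for letters that are known to act in SREBP-responsive promoters. RefSeq windows on GRCm38.p6, running 250 bases before to 50 bases after a start, were matched by symbol for 29 of 36 genes (16 sterol, 8 fatty acid, 5 regulators), and both strands were searched. Some genes have several starts, which gave 38 windows for the 29 genes, and a gene was counted where any of its windows held the letters, for members and for all genes alike. Fdps, Scd2, Scd1, Sqle, Fdft1, Stard4 and Fads1 were not matched. The CCAAT letters, the core of sites for the SREBP partner NF-Y, were in 15 of 16 sterol genes, 5 of 8 fatty acid genes and 4 of 5 regulators, against 41.1% of all 27025 genes. GGGCGG, the core of Sp1 sites, was in 14 of 16 sterol genes, 4 of 8 fatty acid genes and 5 of 5 regulators, against 38.2% of all genes. The E box CACGTG was in 3 of 16, 1 of 8 and 2 of 5 of them, against 8.09%. The sterol regulatory element, spelled TCACNCCAC, was found in Hmgcs1 alone among the 29 genes, against 1.44% of all genes. The 27025 genes outnumber the genes with a value here, whereas every member had one. These shares are therefore not those of measured genes alone, and shares over measured genes were not taken. In all, 9 spellings were searched and the 4 above were chosen after their counts were seen. The other 5 overlap them or each other, and of the 29 genes TCACCCCAC was in 1, TCACCCCA in 2, TCACNCNAC in 2, CACCCCAC in 2 and TCACGTGA in 0, with shares of 0.614%, 1.77%, 3.15%, 3.30% and 1.12% over all genes. A match is a description of the letters and not of a site in use. Ebp, Dhcr7 and Hsd17b7, whose intervals included 1-fold, held both CCAAT and GGGCGG. Acss2, with an interval above 1-fold, held GGGCGG, and Fasn, with one below, did not. The matched sterol genes without CCAAT (Acat2) or without GGGCGG (Pmvk and Ggps1) had intervals that included 1-fold. Whether the letters go with the differences was not tested.

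The upstream sequences of 3 genes that were lower in the 3xF-TRPM1 library (Hmgcs1, Cyp51 and Insig1), of the fatty acid gene furthest below 1-fold (Fasn) and of the gene furthest above it (Acss2) are shown, a choice made after the values were seen. Each is 150 bases of the RefSeq window on GRCm38.p6, ending before the first base that RefSeq or GENCODE M21 counts as transcribed, 5′ to 3′ on the strand of the gene. They lie at chr13:119690201-119690350 on the plus strand for Hmgcs1, chr5:4104747-4104896 on the minus strand for Cyp51, chr5:28071213-28071362 on the plus strand for Insig1, chr11:120824548-120824697 on the minus strand for Fasn and chr2:155517798-155517947 on the plus strand for Acss2. Capitals mark matches, on either strand, to the 4 motifs described first.
Hmgcs1: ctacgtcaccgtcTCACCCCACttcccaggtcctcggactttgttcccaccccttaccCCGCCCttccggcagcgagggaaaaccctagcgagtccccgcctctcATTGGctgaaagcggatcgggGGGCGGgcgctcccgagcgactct
Cyp51: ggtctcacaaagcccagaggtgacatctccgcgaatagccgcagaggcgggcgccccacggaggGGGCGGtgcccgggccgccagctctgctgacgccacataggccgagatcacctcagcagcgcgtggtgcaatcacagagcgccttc
Insig1: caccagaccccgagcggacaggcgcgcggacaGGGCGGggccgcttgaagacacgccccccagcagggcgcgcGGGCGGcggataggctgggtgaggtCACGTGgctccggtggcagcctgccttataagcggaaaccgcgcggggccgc
Fasn: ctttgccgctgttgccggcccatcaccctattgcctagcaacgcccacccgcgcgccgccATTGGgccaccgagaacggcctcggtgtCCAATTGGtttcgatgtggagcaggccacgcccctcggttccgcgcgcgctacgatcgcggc
Acss2: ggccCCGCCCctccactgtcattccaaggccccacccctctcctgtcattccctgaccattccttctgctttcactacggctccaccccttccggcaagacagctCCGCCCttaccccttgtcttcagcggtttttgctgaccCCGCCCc
Hmgcs1 matches the sterol regulatory element and has a CCAAT match and GGGCGG matches in these letters. Cyp51 has a GGGCGG match, Insig1 has an E box and GGGCGG matches, and Fasn has 3 CCAAT matches, of which a pair on opposite strands overlap. Acss2 shows GGGCGG matches. Cyp51, Insig1 and Acss2 have no CCAAT match in the bases printed, and each has a CCAAT match elsewhere in its searched window.

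The mevalonate steps make the isoprenoid units of sterols. All 8 genes had a log2 fold change below 0, with a median of -0.24, and 4 had an interval below 1-fold. Hmgcs1, the synthase that makes HMG-CoA, had 58.0 CPM in the 3xF-TRPM1 library and 66.9 CPM in the empty vector library, a log2 fold change of -0.20 (interval -0.33 to -0.08). Mvk, mevalonate kinase, had 14.3 CPM in the 3xF-TRPM1 library and 18.3 CPM in the empty vector library, a change of -0.34 (interval -0.60 to -0.11). Both intervals thus lay below 1-fold. Mvd, which decarboxylates mevalonate diphosphate, had 26.6 CPM in the 3xF-TRPM1 library against 32.5 CPM in the empty vector library, a log2 fold change of -0.29. Idi1, the isopentenyl diphosphate isomerase, had 13.4 CPM in the 3xF-TRPM1 library against 16.4 CPM in the empty vector library, a log2 fold change of -0.28, and its interval ended at -0.03. The other 4 had intervals that included 1-fold. Pmvk, the phosphomevalonate kinase between Mvk and Mvd, had 17.7 CPM in the 3xF-TRPM1 library and 17.9 CPM in the empty vector library. Acat2, the thiolase that joins acetyl-CoA units, had 42.5 CPM in the 3xF-TRPM1 library and 44.5 CPM in the empty vector library. Ggps1 makes geranylgeranyl diphosphate for protein prenylation, and it had 45.7 CPM in the 3xF-TRPM1 library and 46.8 CPM in the empty vector library. Fdps, the farnesyl diphosphate synthase, had the lowest log2 fold change of all 36 genes at -0.44, but on 32 reads in the 3xF-TRPM1 library and 44 reads in the empty vector library, and its interval ran from -1.24 to 0.15. A difference in Fdps was not detectable at this depth.

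The step from farnesyl diphosphate to lanosterol commits carbon to sterols, and all 3 of its enzymes had an interval below 1-fold. Fdft1, squalene synthase, had 38.2 CPM in the 3xF-TRPM1 library and 50.5 CPM in the empty vector library, a log2 fold change of -0.40 (interval -0.55 to -0.26), the lowest among the genes whose interval excluded 1-fold. Sqle, the squalene epoxidase, had 68.7 CPM in the 3xF-TRPM1 library and 77.1 CPM in the empty vector library, a log2 fold change of -0.17. Lss, which closes the rings to lanosterol, had 42.9 CPM in the 3xF-TRPM1 library and 48.1 CPM in the empty vector library, a log2 fold change of -0.16. The 3 enzymes summed to 150 CPM in the 3xF-TRPM1 library and 176 CPM in the empty vector library, a ratio of 0.852. Fdft1 lies at chr14:63145150-63179578 on the minus strand (GENCODE M21, GRCm38) and shares 26.5% of its 50-base words with other genes, chiefly Ctsb on the opposite strand, which overlaps 18.3% of its exon bases. The strand setting of the counting is not given in the sources used here, so reads of Fdft1 and Ctsb may not have been told apart.

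Of the 8 enzymes that turn lanosterol into cholesterol, 3 had an interval below 1-fold, 0 had one above and the median log2 fold change was -0.09. The first 14-alpha-demethylase step is made by Cyp51, which had 97.3 CPM in the 3xF-TRPM1 library and 117 CPM in the empty vector library, a log2 fold change of -0.27 (interval -0.36 to -0.17). Msmo1, the methylsterol monooxygenase that starts removal of the 4-methyl groups, had 76.0 CPM in the 3xF-TRPM1 library and 93.1 CPM in the empty vector library, a log2 fold change of -0.29 (interval -0.40 to -0.19). Sc5d, the lathosterol desaturase, had 128 CPM in the 3xF-TRPM1 library and 137 CPM in the empty vector library, and its interval of -0.18 to -0.01 ended close to 1-fold. Cyp51 and Msmo1 act early in this stretch and Sc5d late. Nsdhl, which acts after Msmo1, had 12.7 CPM in the 3xF-TRPM1 library and 14.5 CPM in the empty vector library (log2 fold change -0.19, interval including 1-fold). Hsd17b7, the ketosteroid reductase that follows, had 40.3 CPM in the 3xF-TRPM1 library and 38.8 CPM in the empty vector library. Ebp, the sterol isomerase, and Dhcr7, which makes cholesterol from 7-dehydrocholesterol, had log2 fold changes of -0.07 and -0.09, and the intervals of Hsd17b7, Ebp and Dhcr7 included 1-fold. Tm7sf2, a C14 reductase whose role overlaps that of Lbr, stood at 4.88 CPM in the 3xF-TRPM1 library and 4.84 CPM in the empty vector library, a log2 fold change of 0.01 that became -0.03 with total count scaling. Stard4, which carries cholesterol between membranes, had 60.8 CPM in the 3xF-TRPM1 library and 57.2 CPM in the empty vector library, an interval that included 1-fold.

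**Figure D3:**
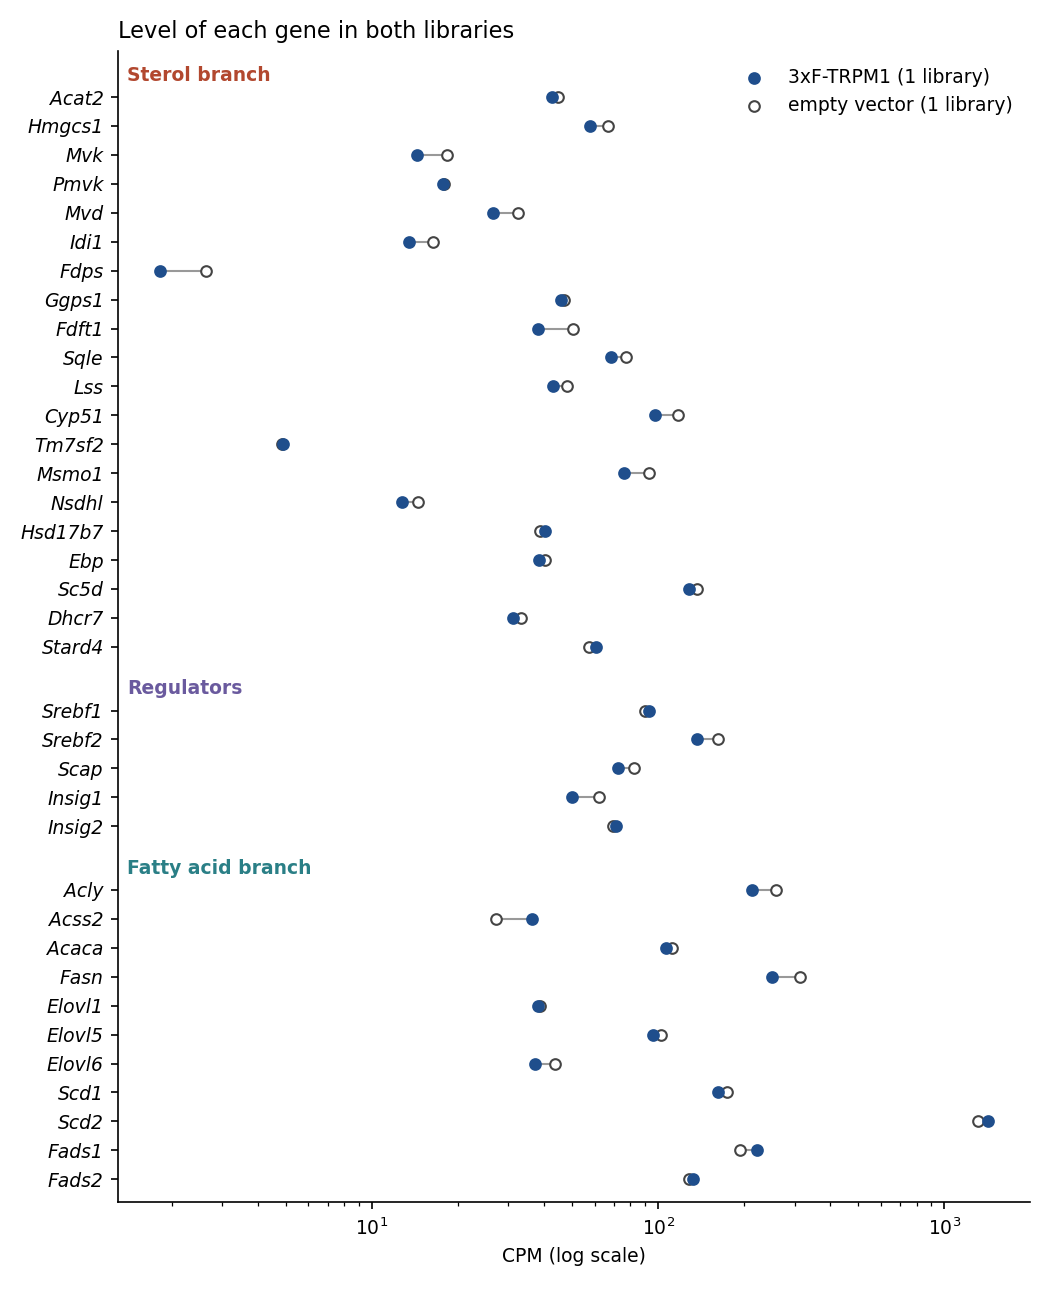
Level of each of the 36 genes in CPM on a log axis, with filled points for the 3xF-TRPM1 library and open points for the empty vector library, 1 library each and so without error bars. Fdft1 lies at 38.2 CPM with 3xF-TRPM1 and 50.5 CPM with the empty vector, Fasn lies at 250 CPM with 3xF-TRPM1 and 314 CPM with the empty vector, and Acss2 lies at 36.3 CPM with 3xF-TRPM1 and 27.1 CPM with the empty vector.

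Of the regulators, Srebf2, Scap and Insig1 had an interval below 1-fold, and Srebf1 and Insig2 had one that included it. Srebf2, which encodes the SREBP of sterol genes, had 136 CPM in the 3xF-TRPM1 library and 162 CPM in the empty vector library, a log2 fold change of -0.25 (interval -0.33 to -0.17). Srebf1 had 92.9 CPM in the 3xF-TRPM1 library and 90.0 CPM in the empty vector library, with an interval that included 1-fold and a log2 fold change of 0.05 that became -0.0013 with total count scaling. Per kilobase of exon, the ratio of Srebf2 to Srebf1 was 1.15 in the 3xF-TRPM1 library and 1.41 in the empty vector library. Scap, the sterol-sensing escort of the SREBPs, had 72.3 CPM in the 3xF-TRPM1 library and 82.4 CPM in the empty vector library, a log2 fold change of -0.19 (interval -0.30 to -0.08). A gene on the opposite strand overlaps 13.2% of the exon bases of Scap, and their reads may not have been told apart. Insig1, the retention protein that is itself an SREBP target, had 49.9 CPM in the 3xF-TRPM1 library and 62.3 CPM in the empty vector library, a log2 fold change of -0.32 (interval -0.45 to -0.19). Insig2, its relative with a different promoter control, had 71.1 CPM in the 3xF-TRPM1 library and 69.8 CPM in the empty vector library, a log2 fold change of 0.03 that became -0.02 with total count scaling. Per kilobase, Insig1 stood at 0.789 of the Insig2 level in the 3xF-TRPM1 library and at 1.002 of it in the empty vector library.

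In the fatty acid branch the precursor and chain enzymes went both ways. Fasn, the synthase that builds palmitate, had 250 CPM in the 3xF-TRPM1 library and 314 CPM in the empty vector library, a log2 fold change of -0.33 (interval -0.39 to -0.27). Acly, which makes cytosolic acetyl-CoA from citrate, had 214 CPM in the 3xF-TRPM1 library and 259 CPM in the empty vector library, a log2 fold change of -0.27 (interval -0.34 to -0.21). Acss2, which makes acetyl-CoA from acetate, went the other way, with 36.3 CPM in the 3xF-TRPM1 library and 27.1 CPM in the empty vector library, a log2 fold change of 0.41 (interval 0.24 to 0.60), the highest of the 36 genes. The pair of enzymes that supply cytosolic acetyl-CoA thus had intervals on opposite sides of 1-fold. Genes on the opposite strand overlap 9.12% of the exon bases of Acss2, so reads of Acss2 and of those genes may not have been told apart. Acaca, the acetyl-CoA carboxylase that makes malonyl-CoA, had 107 CPM in the 3xF-TRPM1 library and 112 CPM in the empty vector library, an interval that included 1-fold here and lay below it with total count scaling. Per kilobase, Fasn was 3.64 times the level of Acaca in the 3xF-TRPM1 library and 4.37 times in the empty vector library. The 4 precursor and chain genes summed to 606 CPM in the 3xF-TRPM1 library and 711 CPM in the empty vector library, a ratio of 0.852.

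The elongases add carbons to finished fatty acids, and all 3 had a log2 fold change below 0. Elovl6, which extends palmitate, had 37.2 CPM in the 3xF-TRPM1 library and 43.6 CPM in the empty vector library, a log2 fold change of -0.23 (interval -0.38 to -0.07). Elovl5, which extends polyunsaturated chains, had 96.1 CPM in the 3xF-TRPM1 library and 103 CPM in the empty vector library, and its interval ended at 0.0017, so that it lay below 1-fold with total count and median-of-ratios scaling. Elovl1, which makes very long saturated chains, had 38.1 CPM in the 3xF-TRPM1 library and 38.8 CPM in the empty vector library.

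Within the fatty acid branch the desaturases were the step with a median above 0 (0.08), and 2 of 4 had an interval above 1-fold. Scd2, a stearoyl-CoA desaturase of brain and other tissues, was the most abundant member, at 261 CPM per kilobase in the 3xF-TRPM1 library and 240 CPM per kilobase in the empty vector library. It had 1424 CPM in the 3xF-TRPM1 library and 1309 CPM in the empty vector library, a log2 fold change of 0.12 (interval 0.10 to 0.15). Scd1, its relative in liver and fat, had 161 CPM in the 3xF-TRPM1 library and 174 CPM in the empty vector library, a log2 fold change of -0.10 (interval -0.18 to -0.03). Both desaturases make oleate from stearate, yet their intervals lay on opposite sides of 1-fold, and per kilobase Scd2 was 7.90 times the level of Scd1 in the 3xF-TRPM1 library and 6.75 times in the empty vector library. Fads1, the delta-5 desaturase of polyunsaturated fatty acids, had 221 CPM in the 3xF-TRPM1 library and 194 CPM in the empty vector library, a log2 fold change of 0.19 (interval 0.12 to 0.26). Fads2, the delta-6 desaturase next to it, had 133 CPM in the 3xF-TRPM1 library and 129 CPM in the empty vector library, a log2 fold change of 0.04 that became -0.0025 with total count scaling. The 4 desaturases summed to 1940 CPM in the 3xF-TRPM1 library and 1805 CPM in the empty vector library, a ratio of 1.07.

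Per kilobase of exon, levels across the 36 genes ran from 0.431 (Fdps) to 261 (Scd2) CPM per kilobase in the 3xF-TRPM1 library and from 0.625 to 240 for the same genes in the empty vector library. In the sterol branch the most abundant gene was Sc5d, at 26.3 CPM per kilobase in the 3xF-TRPM1 library and 28.1 in the empty vector library, followed by Cyp51 at 22.03 in the 3xF-TRPM1 library and 26.5 in the empty vector library. In the fatty acid branch Scd2 was followed by Fads1 in the 3xF-TRPM1 library (46.0 CPM per kilobase, against 40.3 in the empty vector library) and by Acly in the empty vector library (40.5 in the 3xF-TRPM1 library and 49.0 in the empty vector library), and Acss2 was the least abundant, at 3.57 in the 3xF-TRPM1 library and 2.67 in the empty vector library. Among the regulators Insig2 was the most abundant in the 3xF-TRPM1 library at 20.5 CPM per kilobase, and Srebf2 was in the empty vector library at 22.6. Fdps, at chr3:89093588-89101959 on the minus strand, overlaps Gm43738 over 26.7% of its exon bases on the same strand and shares 26.2% of its 50-base words with other genes, so its low level is uncertain.

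Some genes that work beside these enzymes were called at 1.5-fold, a rule that called 6.98% of all genes. Lists of this size would hold some calls at that share. Of 15 other sterol synthesis and oxysterol enzymes considered here, 11 had a value, with a median log2 fold change of 0.09. At 1.5-fold 2 of the 11 were higher, against 3.91% of all genes. These were Ch25h, which makes 25-hydroxycholesterol, a sterol that blocks SREBP processing, with 25.1 CPM in the 3xF-TRPM1 library and 8.31 CPM in the empty vector library (log2 fold change 1.54), and Cyp39a1, an oxysterol hydroxylase, with 26.5 CPM in the 3xF-TRPM1 library and 17.4 CPM in the empty vector library (0.59).

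Of 30 genes of sterol uptake, esterification and transport considered here, 29 had a value, with a median of 0.05. At 1.5-fold 1 of the 29 was higher and 1 lower, against 3.91% of all genes higher and 3.07% lower. Vldlr, a receptor for very-low-density lipoprotein, was lower, with 26.98 CPM in the 3xF-TRPM1 library and 46.7 CPM in the empty vector library (-0.78). Lipa, the lysosomal acid lipase that frees cholesterol from its esters, was higher, with 323 CPM in the 3xF-TRPM1 library and 208 CPM in the empty vector library (0.63). The LXR list held 15 genes of the LXR receptors, their partners and targets, sterol efflux and the bile acid receptor Nr1h4. Of these 13 had a value, and 3 were higher and 0 lower. Over all genes, 3.91% were higher and 3.07% lower. By the interval alone, 6 of the 13 lay above 1-fold, 2 lay below and 5 included it. By that rule 23.1% of all genes lay above and 19.7% below. Abca1, the cholesterol efflux pump, had 298 CPM in the 3xF-TRPM1 library and 146 CPM in the empty vector library (1.03). Apoe, the lipoprotein component, had 115 CPM in the 3xF-TRPM1 library and 49.3 CPM in the empty vector library (1.21). Nr1h4, the bile acid receptor, had 12.9 CPM in the 3xF-TRPM1 library and 8.25 CPM in the empty vector library (0.62).

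At 1.5-fold, 0 of 27 measured genes of SREBP processing and its cofactors (median 0.02) and 0 of 18 genes of isoprenoid use (median -0.02) were called, against 6.98% of all genes, and lists of this size would hold few calls at that share. By the interval alone, 6 of the 27 lay above 1-fold and 5 below, and 0 of the 18 lay above and 4 below. By that rule 23.1% of all genes lay above and 19.7% below. Among the 27, Mbtps1 and Mbtps2, the site-1 and site-2 proteases that release SREBPs, had log2 fold changes of 0.26 and -0.46, and both intervals excluded 1-fold; they are named after their values were seen. Of 41 other fatty acid synthesis, elongation and activation enzymes, 32 had a value, with a median of -0.12, and 0 were higher and 4 lower. These were Mcat, the mitochondrial malonyl transferase (-0.65), Hacd2 and Hacd4, dehydratases of the elongation cycle (-0.60 and -0.59), and Acsl6, an acyl-CoA synthetase (-1.07, on 50 reads in the 3xF-TRPM1 library and 109 in the empty vector library). Of 32 fatty acid oxidation genes, all measured with a median of 0.10, the thiolase Acaa2 (0.80) and the coactivator Ppargc1a (1.08) were higher and the isomerase Eci1 (-0.59) was lower. Of 26 measured glycerolipid genes with a median of 0.01, Lpin1, a phosphatidate phosphatase, was higher (0.72) and 0 were lower. For the fatty acid enzyme, oxidation and glycerolipid lists, the shares over all genes are 3.91% higher and 3.07% lower.

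**Figure D4:**
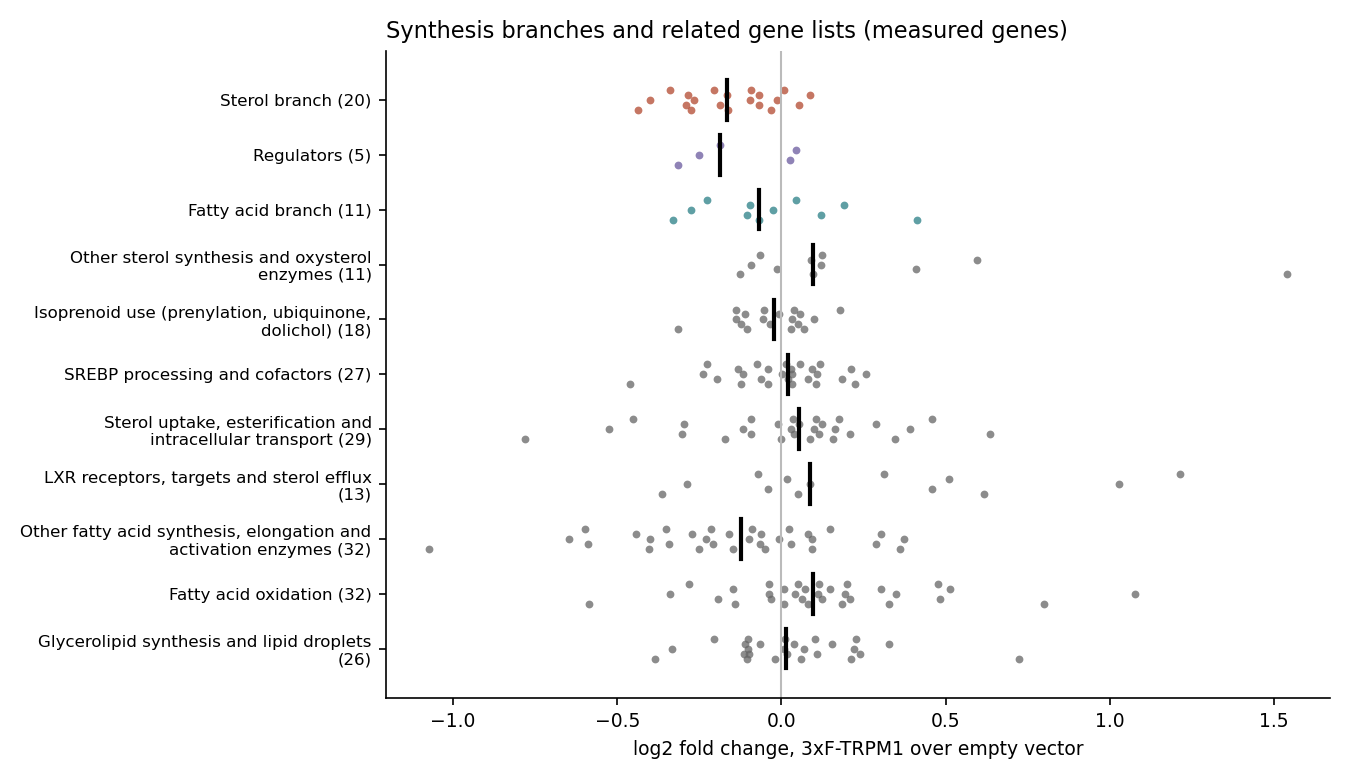
Log2 fold change, 3xF-TRPM1 over empty vector, of the genes measured in the sterol branch, the regulators, the fatty acid branch and 8 related lists as considered here, with the number measured beside each name. Each point is a gene and the vertical bar is the median, which was -0.17 for the sterol branch and -0.07 for the fatty acid branch. The median was 0.09 for the LXR list, 0.09 for other sterol and oxysterol enzymes and 0.10 for fatty acid oxidation. Points reach 1.21 (Apoe) in the LXR list and 1.54 (Ch25h) among the other sterol and oxysterol enzymes.

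Markers of some other cell types also differed between the libraries. Their counts at 1.5-fold stand against 3.91% of all genes higher and 3.07% lower. Of 16 measured fibroblast and matrix genes, 8 were higher and 0 lower at 1.5-fold, with a median of 0.67, and their summed level was 26406 CPM in the 3xF-TRPM1 library and 17189 CPM in the empty vector library. Of 7 measured Mueller glia and astrocyte markers 4 were higher, Apoe among them, and the sum was 1486 CPM in the 3xF-TRPM1 library and 993 CPM in the empty vector library, while Rlbp1, Aqp4 and Gfap had no value. Of 3 measured adipocyte markers 2 were higher, the lipase Lpl and the regulator Pparg. The 3 summed to 937 CPM in the 3xF-TRPM1 library and 523 CPM in the empty vector library. Lpl alone held 926 CPM of the sum in the 3xF-TRPM1 library and 517 CPM in the empty vector library. The adipocyte genes Adipoq, Plin1, Lep and Cidec had no value. The 2 measured macrophage markers, Cd68 and Cd14, were lower, with 9.07 CPM in sum in the 3xF-TRPM1 library and 15.9 CPM in the empty vector library, and the 4 measured retinal pigment epithelium markers summed to 41.9 CPM in the 3xF-TRPM1 library and 37.7 CPM in the empty vector library. The defining leukocyte gene Ptprc and the defining pigment epithelium gene Rpe65 had no value. The part of these shifts in the lipid gene differences was not tested. In bulk libraries, a change in the share of a kind of cell and a change in RNA per cell cannot be told apart.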

How the data were processed

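RNA from 2 groups of 661W cells (3xF-TRPM1 and empty vector, 1 library each) was sequenced on an Illumina NovaSeq instrument after mRNA library preparation. Per the labels and the study's methods, the authors used GRCm38 and HISAT2 2.1.0 for alignment, featureCounts 2.0.0 for counting, and edgeR 3.28.1 and a package named as DESeq 1.40.0. The deposited table gives CPM by the authors for 13281 genes, and its gene lengths equal the exon union of GENCODE M21 in 100% of them. The 3xF-TRPM1 values were not scaled to the plain read total. How the CPM values were scaled, and whether counting used strand, is not given in the sources used here. 2 further columns repeat the CPM columns and were not used. The authors' own fold changes, p-values and gene set table hold their comparison of the libraries and were not used.

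CPM values were divided by the step of each library, which gave whole reads within 0.01 of a step for 100% of values. These reads served for intervals and scaling alternatives only, and no count model was run. Differences used a pseudocount of 0.5 CPM, which understates changes of low genes, and a minimum mean of 1 CPM (0 genes lost). Genes were called at 1.5-fold with a 95% exact (Clopper-Pearson) interval that excluded 1-fold, or by the interval alone. Shared sequence was counted as 50-base words of GENCODE transcripts. Named genes are all 36 members and, per related list, the genes called at 1.5-fold (the 4 largest at a mean of at least 5 CPM where more were called). Mbtps1, Mbtps2 and some cell type markers are named outside this rule. Some genes of the related lists are not reported here, and list counts, medians and the plot of lists were made without them. Members and lists were chosen with earlier results of these data known. The scripts were tested on simulated reads. The tools were scipy 1.17.1 and numpy 2.4.6 for the intervals, pandas 2.3.3 for tables and matplotlib 3.10.9 for figures, under Python 3.11.15.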

Additional observations from a re-analysis of the deposited data

How the results depend on the processing

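The alternatives were total count and median-of-ratios scaling, pseudocounts of 0.1 and 1, no filter, a minimum mean of 5 CPM, fold thresholds of 2 and of 0.32 on the log2 scale, and an interval with an error rate of 0.001, and the exclusion of genes with shared sequence was added after the data were seen. Of 214 values of single members under the alternatives, 213 moved by less than their counting error. The other, Scd2 at 0.08 with total count scaling, moved by more. No filter and the minimum of 5 CPM only choose genes, so the value of a single member could not move under them. Total count scaling turned the sign of 4 members whose intervals include 1-fold. Over all genes, 408 were lower at 1.5-fold and 217 with the minimum of 5 CPM, 115 were higher and 117 lower at 2-fold, and 1336 were higher and 995 lower at the lower threshold. There, 2 sterol genes were lower (Fdft1 and Mvk), 1 fatty acid gene was higher (Acss2) and 1 lower (Fasn). With the error rate of 0.001, 1742 genes lay above 1-fold and 1310 below. Of the members, 3 sterol genes and 2 fatty acid genes lay below, against 10 and 4 with the 95% interval. The 3 fatty acid genes above 1-fold and the 3 regulators below it were as many with either interval. Total count scaling moved the median of all genes to -0.04, left 10 sterol genes below 1-fold and put 6 fatty acid genes below and 3 above. The sterol median ran from -0.21 (total count scaling) to -0.10 (shared sequence left out). With 1 library per condition no replicate could be left out. No paired analysis was possible because each group has 1 library. Depth limits the genes with few reads, Fdps (32 with 3xF-TRPM1, 44 with the empty vector) and Tm7sf2 (86 with 3xF-TRPM1, 81 with the empty vector).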
